A study of Mus musculus with 31 samples.

Results

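The effect of a single injection of MgSO4 after 24 h was measured on 4 of the 31 two-color Agilent whole mouse genome arrays of the series, the arrays titled Mg 24h (a to d), called replicates 1 to 4 here. On every one of them the Cy5 channel held forebrain RNA from NMRI mice given MgSO4 (600 mg/kg) at day 5, and the Cy3 channel held forebrain RNA from controls, which the labels describe as litter mates taken at the same time. None of these mice underwent hypoxia-ischemia (HI), and the other arrays hold MgSO4 at 3 h (4 arrays), 6 h (7 arrays) and 12 h (4 arrays) and 4 HI groups of 3 arrays. Each RNA was a pool of 6 animals, 3 males and 3 females in the labels, so the 4 arrays cannot show the spread between mice. They show the spread between pools only if no array repeats a pool, which is not given. The methods describe pools of 6 ipsilateral hemispheres, and a supplementary note gives 3 hemispheres per replicate. The labels give a subcutaneous route and PBS in the control channel, whereas the methods give an intraperitoneal route and untreated controls, and the part of the injection itself in the ratios was not tested. Dyes were not exchanged on any array, so the response of a probe to the dye and its response to MgSO4 cannot be told apart.

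Magnesium ions block the pore of the NMDA-type glutamate receptor at resting membrane potential. MgSO4 is given to women at risk of very preterm delivery to protect the brain of the infant, and the mouse at postnatal day 5 is used as a model of the human preterm brain. At this age cortical neurons are still extending axons and forming their first synapses, under the control of guidance cues and of reelin, a secreted protein that positions migrating neurons.

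The value of a probe was the log2 ratio of the processed Cy5 signal to the processed Cy3 signal, so that a positive value is a higher level with MgSO4, and means are given ± SD over the 4 arrays. Between 57.7% and 68.5% of spots in Cy3 and between 59.1% and 70.2% in Cy5 were well above background, and no spot was saturated. Of all tested genes, 89.6% were well above background in both channels on all 4 arrays. Among tested markers this held for 21 of 23 of neurons, 12 of 12 of astrocytes and 14 of 16 of the oligodendrocyte lineage. Across 23622 tested probes, the ratios of the 6 pairs of arrays correlated at Pearson r between -0.13 (replicates 1 and 3) and 0.23 (replicates 3 and 4), a description across probes of arrays that each compare different pools. Each of these arrays lay on its own slide, and every such slide also held a 12 h array and at least 1 array of the 6 h group.

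At 24 h 2 probes passed the test, both with higher signals in the MgSO4 channel, and 1 of them has a gene name. Both met the filter on dim probes only through Cy5, the channel in which they were high, and without that filter 0 probes passed (adjusted p of 0.277 for both). The rule for a call was an adjusted p below 0.05 (limma, Benjamini-Hochberg) and a change of 1.5-fold or more, which 0.00847% of the 23622 probes met as higher and 0 as lower. Without adjustment, 10.8% of probes had a p below 0.05, and 0.859% were higher and 0.275% lower when 1.5-fold was required too. Of these 268 probes 93 had no gene name, and the others belonged to 174 named genes, 130 higher and 44 lower. The t-test of the study's methods gave 73 such genes, and 0 after adjustment. The named gene was Gm12886, a predicted gene, with log2 ratios of 2.08, 2.04, 2.05 and 2.59 on replicates 1 to 4, a mean of 2.19 ± 0.27 and an adjusted p of 0.0275. All 4 values lay far above 0, yet the signals were faint. In Cy3 its signals were 12.8, 4.75, 5.33 and 4.02 units and not well above background on any array, against 54.1, 19.5, 22.0 and 24.2 units in Cy5, above background on 3 arrays. With the control held at the lowest level that counts as above background, Gm12886 was at least 1.87-fold higher in Cy5. This bound is on background-subtracted signals equalized between arrays and holds for those signals only. The other probe matched no gene symbol here. Its log2 ratios were 3.41, 3.23, 2.24 and 3.19, with a mean of 3.02 ± 0.53, an adjusted p of 0.0349 and a bound of at least 2.04-fold. It too was above background in Cy5 on all 4 arrays and in Cy3 on none. Without replicate 1, 2, 3 or 4 the adjusted p of Gm12886 was 0.255, 0.654, 0.0981 and 0.191. The unnamed probe still passed without replicate 3 (adjusted p = 0.0116) and did not when any other array was left out. With signals not background-subtracted, the mean ratio of Gm12886 was 0.46, under 1.5-fold and under its log2 bound of 0.90, and with a normexp correction it was 0.18.

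Both probes also had ratios above 0 on the other arrays. The mean log2 ratio of Gm12886 was 2.39 ± 0.66 at 3 h, 2.65 ± 1.18 (6 h) and 2.91 ± 0.96 (12 h), and no difference between 24 h and these times passed the test (adjusted p of 0.999 or more). In the 2 HI groups titled as hypoxia-ischemia against naive mice, its means were 2.48 ± 0.58 at 3 h and 2.16 ± 1.17 at 12 h. In the other 2, in which Cy5 held mice given MgSO4 before HI, they were 2.29 ± 0.55 and 1.75 ± 0.88; for their Cy3 channel the labels give MgSO4-treated naive mice and the methods HI mice. Gm12886 was above 0 on 31 of the 31 arrays, from 0.84 to 4.48, and so was the unnamed probe, from 0.97 to 4.91. The part of the dye in these ratios was not tested.

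**Figure D1:**
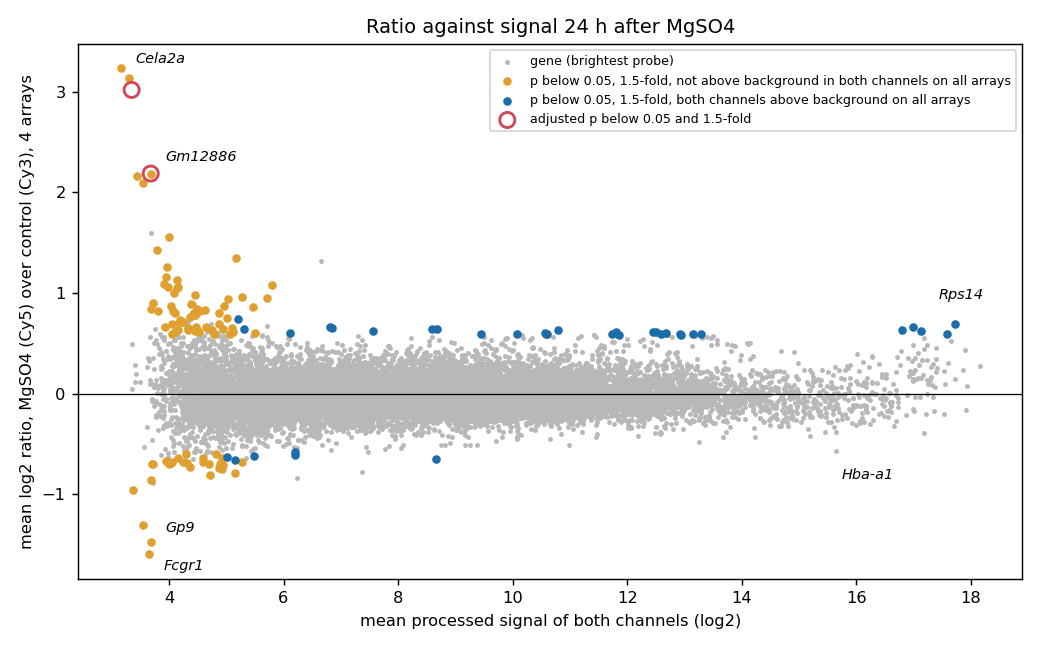
Mean log2 ratio at 24 h (vertical axis, MgSO4 over control, 4 arrays) against the mean log2 processed signal of both channels for 14012 genes, each by its brightest tested probe. Orange and blue points are the 130 genes at an unadjusted p below 0.05 and 1.5-fold, blue where both channels were above background on all 4 arrays (36 genes), and red circles mark the 2 called probes, the upper of which is unnamed and the lower Gm12886. The widest ratios lie at the faint end.

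The genes with the highest mean ratios gave signals close to background. Each of 14012 genes was represented by its brightest tested probe, of which 96 (0.685%) were higher and 34 (0.243%) lower at an unadjusted p below 0.05 and 1.5-fold. Of these 130, 107 had the same sign on all 4 arrays, 86 above 0 and 21 below, against 10.8% and 10.9% of all genes. The 130 were selected on the same 4 ratios, so their shared signs are no separate support. Of the 130, 36 were well above background in both channels on all 4 arrays (27.7%), against 89.6% of all genes tested. Gm12886 apart, none of the genes named below passed the adjusted test, and their values are given without a call. Among the 10 genes with the highest mean ratio and 1 sign on all arrays, 6 were above background in Cy3 on no array.

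Cela2a, a pancreatic elastase, had log2 ratios of 4.79, 3.56, 0.81 and 3.78, with a mean of 3.23 ± 1.70 (adjusted p = 0.265). The bound from the background was at least 2.07-fold, and replicate 3 lay far under the other arrays. Vmn1r236, a vomeronasal receptor, had a mean of 3.14 ± 0.92 and a bound of at least 2.08-fold. Krt6b, a keratin of stratified epithelia, reached 2.16 ± 0.75 (at least 1.67-fold) and Olfr160, an olfactory receptor, 2.10 ± 1.29 (at least 1.66-fold). These 4 genes are known from tissues outside the forebrain, and their Cy5 signals stood between 6.69 and 63.3 units. Krt78, another keratin, had a mean of 1.56 ± 1.00, the predicted gene Gm10635 1.42 ± 0.95 (at least 1.56-fold) and Epb41l4b, a membrane-cytoskeleton linker, 1.35 ± 1.39. Trpc7, a cation channel gated downstream of phospholipase C, gave 1.19, 1.63, 0.80 and 1.41, and Syt15, of the synaptotagmin family, gave 0.22, 1.83, 1.40 and 1.19. Of the pair, Trpc7 varied less between arrays, with an SD of 0.35 against 0.68. At 3, 6 and 12 h Cela2a had means of 0.84, 2.58 and 3.04 and Vmn1r236 had 1.26, 3.34 and 3.00. Gm10635 had -0.27, 0.16 and -0.07 at these times. For hypoxia-ischemia against naive mice at 3 and 12 h, Cela2a had means of 2.49 and 2.59 and Vmn1r236 had 2.89 and 2.19. In these HI groups Krt6b had 0.89 and 0.88 and Gm10635 had -0.29 and -0.37. High ratios of Cela2a and Vmn1r236 were thus not particular to 24 h.

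Of the 10 genes with the lowest mean ratios, Fcgr1, the high-affinity IgG receptor of monocytes and microglia, came first with log2 ratios of -1.71, -0.76, -1.02 and -2.91 and a mean of -1.60 ± 0.96 (adjusted p = 0.302). Its Cy5 signals were between 2.95 and 16.8 units and its Cy3 signals between 16.7 and 34.0 units, the control channel being the higher on every array. Gp9, part of the von Willebrand factor receptor of platelets, had ratios of -1.39, -1.85, -1.72 and -0.97, a mean of -1.48 ± 0.39 (adjusted p = 0.265) and a bound of at least 1.63-fold. In both genes the arrays, which share a sign by the selection, differed in size. The other 8 lay between -0.96 and -0.70. They included Dsg1c, a desmosomal cadherin (-0.96 ± 0.38), Stx2, a syntaxin of membrane fusion (-0.81 ± 0.36), Acox2, a peroxisomal oxidase of bile acid synthesis (-0.79 ± 0.34), Ddr2, a collagen receptor (-0.75 ± 0.83), and F12, coagulation factor XII (-0.73 ± 0.28). Ttc39b (-0.71 ± 0.54, but 0.54 ± 0.62 by its other probe), Dhtkd1, a mitochondrial dehydrogenase (-0.71 ± 0.21), and Inmt, a methyltransferase (-0.70 ± 0.68), completed them. Ddr2 owed its mean largely to replicate 4, at -1.99 against -0.53, -0.33 and -0.17 on the others.

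**Figure D2:**
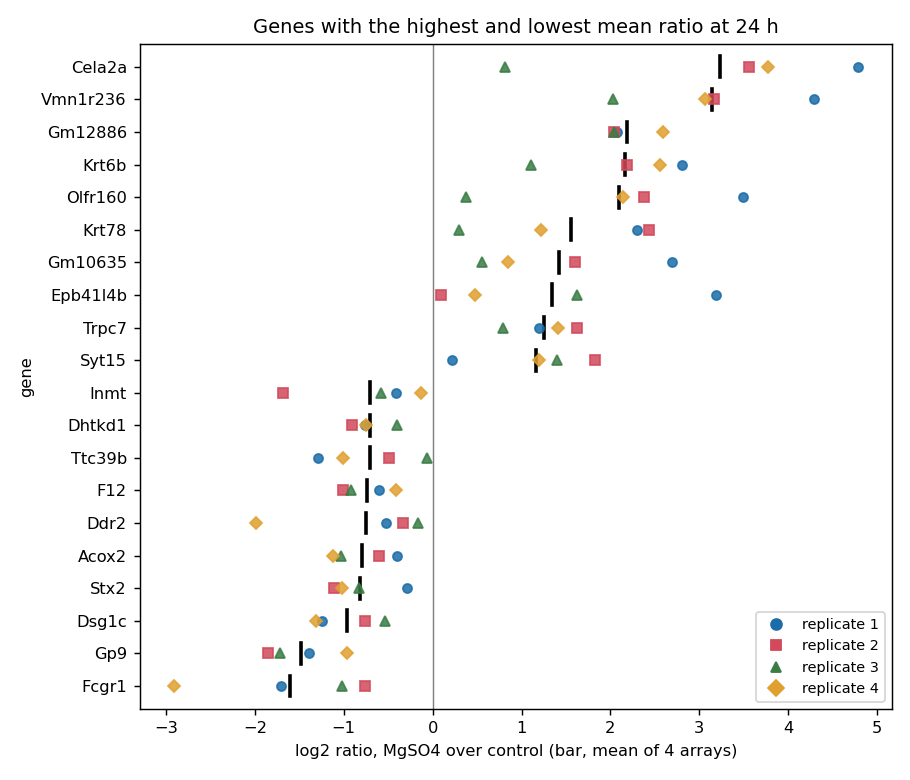
Log2 ratio of MgSO4 over control on each of the 4 arrays (symbols) and their mean (black bars) for the 10 genes with the highest and the 10 with the lowest mean ratio among those at an unadjusted p below 0.05, 1.5-fold and 1 sign on all arrays. Cela2a spans 0.81 to 4.79, whereas Gm12886 spans 2.04 to 2.59.

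The 36 genes well above background in both channels on all 4 arrays had smaller ratios, 30 of them from 0.59 to 0.74 and 6 from -0.66 to -0.59, none past the adjusted test. Those named here among the 30 higher genes were chosen after their values were seen. Kcna4, a voltage-gated potassium channel of axons, had ratios of 0.57, 0.70, 0.61 and 0.54, the guanine nucleotide exchange factor Ralgps1 had 0.47, 0.71, 0.60 and 0.59, and Slc1a4, a neutral amino acid transporter, had 0.46, 0.70, 0.61 and 0.60. The arrays gave these genes nearly the same values. For 22 of the 30 the SD was below the median SD of all genes (0.21), and their ratios were 0.35 to 0.78 on replicate 1, 0.64 to 0.94 on replicate 2, 0.43 to 0.63 on replicate 3 and 0.50 to 0.92 on replicate 4. The 30 were selected by a p from the same arrays, which favors a small SD. Others of the 30 were uneven, such as Irx1 (SD 0.65) and Zfp605 (SD 0.68). The same 30 genes had a median ratio of 0.61 at 24 h, against 0.67 (3 h), 0.40 (6 h) and 0.65 (12 h), and of 0.67 to 0.74 in the 4 HI groups. Kcna4 itself stood at 0.74, 0.43 and 0.56 at 3, 6 and 12 h. The 6 lower genes were Slpi, a secreted protease inhibitor (-0.66 ± 0.17), Lypd2, Tfap2d, a transcription factor, Gm12298, Bglap2 and Apobr, a lipoprotein receptor of macrophages (-0.59 ± 0.14). Slpi had ratios of -0.69, -0.74, -0.42 and -0.80, and means of -0.13 ± 1.00, -0.04 ± 0.35 and -0.03 ± 0.47 at 3, 6 and 12 h. None of these times differed from 24 h in the test (adjusted p of 0.999 or more). For hypoxia-ischemia against naive mice Slpi had means of -0.23 at 3 h and 0.21 at 12 h. In the HI groups given MgSO4 the means were -0.53 and -0.41.

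Genes of the glutamatergic synapse had values on both sides of 0. None of the members of the 33 gene lists examined was called. Over all genes, 47.9% had a mean ratio above 0, 52.1% were below 0, the median was -0.01, and 6.19% were higher and 4.72% lower at an unadjusted p below 0.05, the shares against which list counts are read here. Of the NMDA receptor subunits, 3 of 5 were above 0, none at an unadjusted p below 0.05. Grin1, the obligatory subunit, had ratios of -0.53, -0.08, 0.04 and -0.07, and Grin2a, a subunit that replaces Grin2b during maturation, had 1.20, 0.24, 0.10 and -0.18. The arrays disagreed in sign for both. Among 10 AMPA, kainate and delta subunits, 7 were above 0 with a median of 0.17, and Grik3 and Gria4 were higher at an unadjusted p below 0.05. Grik3, a kainate receptor subunit, gave 0.45, 0.56, 0.41 and 0.56, a mean of 0.49 ± 0.08 (adjusted p = 0.265), which is even across arrays, while Gria1, an AMPA receptor subunit, rested on replicate 3 (1.12 against 0.28, 0.19 and -0.04).

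Postsynaptic scaffolds (12 of 19 above 0, median 0.07), synaptic vesicle and release genes (14 of 27, median 0.01) and genes of GABA synthesis and receptors (8 of 17, median -0.03) had medians near that of all genes. Their medians differed between arrays more than from 0. Scaffolds stood at -0.09, 0.26, 0.14 and 0.00 on replicates 1 to 4, and vesicle genes at -0.18, 0.10, 0.20 and 0.03. Shank3, which links receptors to the actin skeleton, ranged from -0.90 on replicate 1 to 0.38 on replicate 3, and Slc17a7, which loads vesicles with glutamate, was -0.19 on replicate 2, 0.14 on replicate 3 and -0.49 on replicate 4, and lower still on replicate 1. For both, replicate 1 was the lowest array and replicate 3 the highest. Pclo, a scaffold of the presynaptic active zone, was the highest vesicle gene (0.53 ± 0.19 by its brightest probe, with 0.54, -0.03 and -0.08 by its other tested probes). Of the 30 tested genes that the study names from arrays of this series, 19 were above 0, with medians of -0.14, 0.21, 0.17 and -0.04 on the 4 arrays. Septin3, Grik3, Psd3 and Mapre2 were higher at an unadjusted p below 0.05. By other probes the means were 0.15 for Septin3, 0.04, 0.01, 0.14 and -0.09 for Psd3 and -0.17 for Mapre2. Grik3 had 1 tested probe. The list of genes named by the study was drawn up on arrays of the same series and is no independent evidence of a direction.

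**Figure D3:**
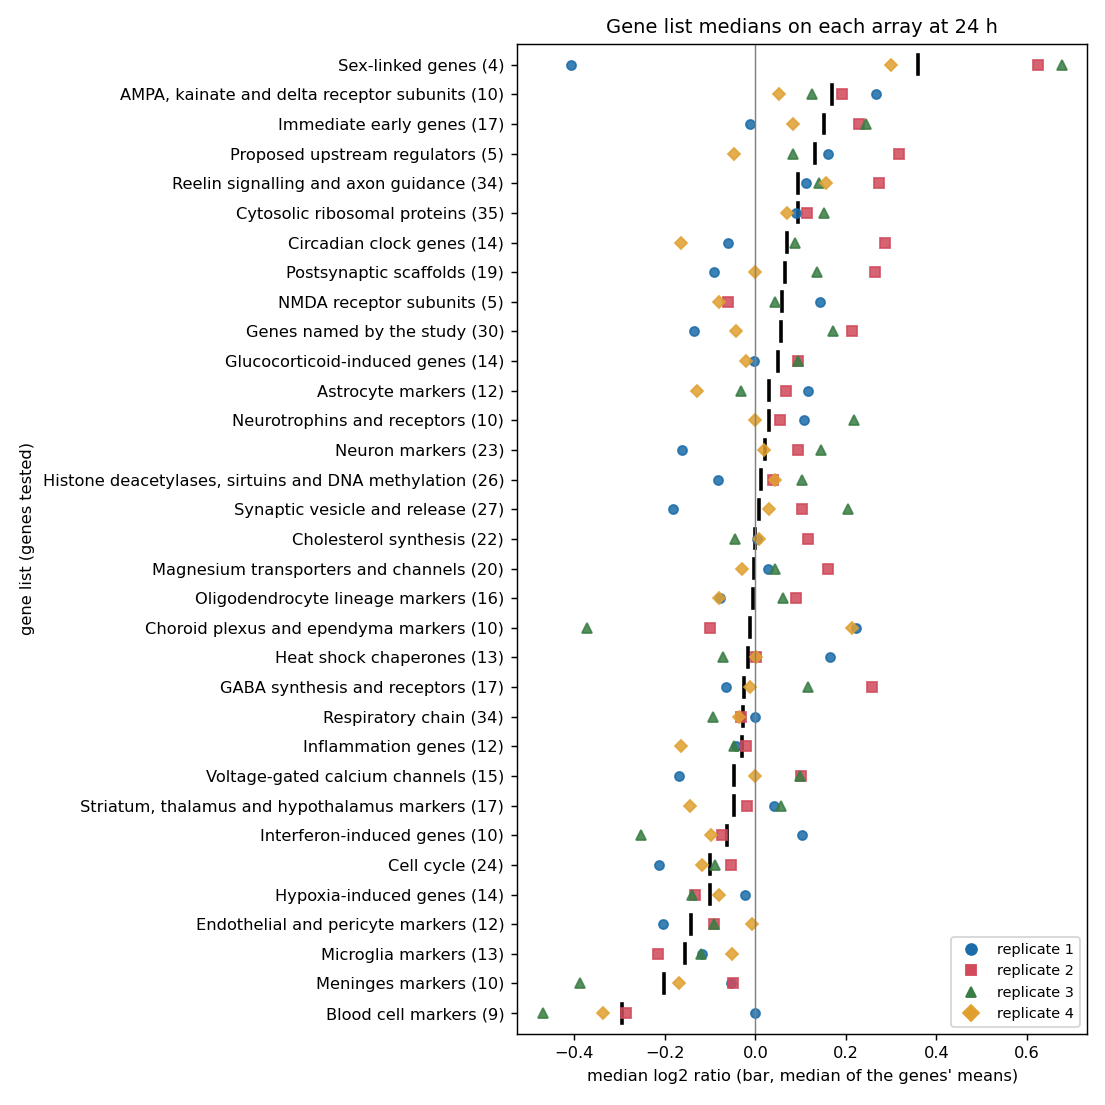
Median log2 ratio of each gene list on each array at 24 h (symbols) and median of the genes' mean ratios (black bars), with the number of genes tested in brackets. Blood cell markers have the lowest median (-0.29), and many synaptic lists lie on both sides of 0 depending on the array.

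Most reelin signalling and axon guidance genes had mean ratios above 0, and none passed the adjusted test. Of 34 genes, 29 had a mean above 0 (85.3%, against 47.9% of all genes), and the list median was 0.09. On all 4 arrays 10 were above 0 and 0 below, against 10.8% and 10.9% of all genes. The study reports these pathways as enriched after MgSO4 on arrays of this series, mostly through repressed genes. The list is therefore no independent evidence of a direction. The medians were 0.11, 0.27, 0.14 and 0.16 on replicates 1 to 4, all above 0, and 8 genes were higher at an unadjusted p below 0.05 and none lower. Without replicate 1, 2, 3 or 4 the list median was 0.17, 0.11, 0.11 and 0.13. It was 0.07 without background subtraction and 0.07 after the normexp correction. For members well above background in both channels on all 4 arrays it was 0.08. Sema3e, a secreted repellent of axons and vessels, had ratios of 0.82, 0.32, 0.57 and 0.90 (mean 0.65 ± 0.26), and Lrp8, a reelin receptor, had 0.34, 0.58, 0.31 and 0.37 (0.40 ± 0.13). Both were above 0 on every array. Slit2, a secreted guidance ligand, had a mean of 0.38 ± 0.20, its receptor Robo1 0.32 ± 0.20, the semaphorin receptor Plxna2 0.29 ± 0.22, the ephrin receptor Epha7 0.28 ± 0.12 and the repellent Sema3a 0.25 ± 0.17. Epha5, another ephrin receptor (0.61 ± 0.16), is 1 of the 22 genes with a small SD above. Its means were 0.71, 0.39 and 0.63 at 3, 6 and 12 h and 0.72 to 0.84 in the HI groups. Reln itself had -0.53, -0.06, 0.18 and 0.71, and Dab1, its intracellular adaptor, had a mean of 0.05 ± 0.13, and neither had 1 sign on all arrays. The list median was 0.04, 0.06 and 0.26 at 3, 6 and 12 h.

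Of the regulators that the study inferred upstream of its genes, 4 were examined here, Mknk1, Fmr1 and Sirt1 for MgSO4 alone and Rictor for MgSO4 with HI, and none of these 4 passed the test. The study itself reports that transcription of Mknk1, Fmr1 and Rictor was not affected, and infers the regulators from the genes downstream of them. The ratios here are of transcripts and do not measure the activity of the proteins. Mknk1, a kinase of the translation factor eIF4E, had ratios of 0.40, -0.49, 0.08 and -0.20 (mean -0.05 ± 0.38, adjusted p = 0.922). Fmr1, which binds neuronal mRNAs, had 0.16, 0.61, 0.03 and 0.17 by its brightest probe (0.24 ± 0.25, adjusted p = 0.508), and its other 2 probes had means of 0.02 and -0.06. Sirt1, a protein deacetylase, had a mean of 0.13 ± 0.27 (adjusted p = 0.715) and Rictor, a subunit of the kinase complex mTORC2, 0.16 ± 0.48 (adjusted p = 0.777). Fmr1 was above 0 on every array, and the other 3 had arrays on both sides of 0. The mean of Rictor was -0.03 without replicate 3, and that of Mknk1 was 0.10 without replicate 2 and 0.01 after the normexp correction.

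Genes that carry magnesium showed values on both sides of 0, with 9 of 20 above it and a median of 0.00. Trpm7, a channel for magnesium with its own kinase domain, had ratios of 0.51, 0.49, 0.21 and 0.24 (mean 0.36 ± 0.16), and Nipal3, of a family of magnesium transporters, had 0.75, 0.58, 0.23 and 0.35 (0.48 ± 0.23). Mrs2, the magnesium channel of mitochondria, had -0.47, -0.03, -0.47 and -0.37 (-0.34 ± 0.21). In each of the 3 genes all arrays shared a sign, and the adjusted p was 0.335 to 0.402. Voltage-gated calcium channels had 7 of 15 above 0, among them Cacna1g, a T-type channel, at 0.34 ± 0.11 (0.09 by its other probe), with Cacnb4, an accessory subunit, at -0.33 ± 0.13.

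Immediate early genes, which neurons switch on with activity, had 11 of 17 above 0 and a median of 0.15. Nr4a2, a nuclear receptor of this class, had ratios of 0.24, 0.68, 0.63 and 0.55 by its brightest probe and -0.18, -0.46, -0.07 and -0.55 by another, so that its probes disagreed in sign on all 4 arrays. Fosb, a subunit of the AP-1 factor, gave 0.56, 0.59, 0.44 and 0.43 (0.51 ± 0.08), and its mean was 0.20, 0.71 and 0.17 at 3, 6 and 12 h. Egr1 (0.34 ± 0.27) and Fos (0.32 ± 0.26) were also at an unadjusted p below 0.05, and so, in the opposite direction, was Jun, with -0.01, -0.45, -0.42 and -0.47. Fos was above background on 3 arrays in each channel.

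Ribosomal proteins were split. Of 35 genes, all well above background in both channels, 20 were above 0 and 15 below, the median was 0.09, and 12 were higher and 1 lower at an unadjusted p below 0.05. Rps14 had ratios of 0.64, 0.78, 0.43 and 0.92 (0.69 ± 0.21, adjusted p = 0.265), Rpl35 had 0.50, 0.64, 0.49 and 0.75 (0.60 ± 0.12) and Rpl32 had 0.38, 0.55, 0.44 and 0.56 (0.48 ± 0.09). Rpl3 lay on the other side, at -0.41, -0.38, -0.26 and -0.20. At 3, 6 and 12 h the means were 0.59, 0.78 and 0.82 for Rps14 and -0.20, -0.36 and -0.31 for Rpl3. The list median was 0.20 without background subtraction and 0.25 after the normexp correction. Without background subtraction and with loess, 37 probes were called, all higher, and 11 of the 23 named ones were ribosomal protein genes, Rps14, Rpl35, Rps24 and Rps10 among them. With the spread estimated over the 4 times, 44 probes were called and 2 of the 30 named ones were ribosomal protein genes (Rps14 and Rpl35). Of the 18029 named probes tested, 0.882% were for ribosomal protein genes. Ribosomal protein genes have many near-identical pseudogene copies, so a probe may read several of them.

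Markers of blood cells had the lowest list median. Of 9 genes, 8 had a mean below 0 with a median of -0.29, 4 were below 0 on all 4 arrays and 0 above (10.9% of all genes were below 0 on all 4, and 10.8% above), and 4 were lower at an unadjusted p below 0.05. The list medians were 0.00, -0.29, -0.47 and -0.34 on replicates 1 to 4, so replicate 1 showed no shift of the list. Hba-a1, the alpha chain of adult hemoglobin, had ratios of -0.66, -0.48, -0.58 and -0.57, a mean of -0.57 ± 0.07 (adjusted p = 0.265), the narrowest spread of the list. Alas2, the first enzyme of heme synthesis in red cells, had -0.44, -0.19, -0.70 and -0.72, Hba-a2 had -0.30, -0.29, -0.65 and -0.34, and Hbb-bt, a beta chain, had -0.49, -0.13, -0.43 and -0.49. All 4 genes belong to red cells, and the globin copies share so much sequence that their probes may read each other's RNA. The neutrophil genes S100a8 (0.12 ± 0.16) and S100a9 (-0.05 ± 0.15) lay near 0. In pooled tissue, fewer cells of a type and less RNA per cell cannot be told apart. The list median was -0.18 without background subtraction and -0.12 after the normexp correction. The mean of Hba-a1 was -0.08 ± 0.10 at 3 h, -0.37 ± 0.19 (6 h) and -0.38 ± 0.18 (12 h), and no difference between 24 h and these times passed the test (adjusted p of 0.999 or more).

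The meninges, microglia and endothelial lists also had medians below 0. Meninges markers had 8 of 10 below 0 with a median of -0.20, led by Igf2, a growth factor of meninges and choroid plexus, at -0.76, -0.19, -0.67 and -0.37. Microglia markers had 8 of 13 below 0 with a median of -0.15. C1qa, a complement chain, had ratios of -0.59, -0.71, -0.32 and -0.41 (-0.51 ± 0.18), Fcrls had a mean of -0.36 ± 0.22 and Tmem119 one of -0.21 ± 0.07, whereas Cx3cr1 (0.18 ± 0.20, and -0.26 ± 0.07 by its other probe), P2ry12 (0.03 ± 0.11) and Aif1 (0.05 ± 0.16), all defining markers, had means above 0 by their brightest probes. The microglia list was thus divided. Endothelial and pericyte markers had 8 of 12 below 0 with a median of -0.14, and Cldn5, the tight junction protein of brain vessels, had -0.72, -0.55, -0.15 and -0.32. The endothelial median was -0.06 without replicate 1. Cell cycle genes had 18 of 24 below 0 with a median of -0.10 (-0.02 after the normexp correction), including Top2a, a topoisomerase of dividing cells (-0.31 ± 0.18), and Ccnb1, a mitotic cyclin (-0.30 ± 0.11). Astrocyte markers had 9 of 12 above 0 with a median of 0.03, and oligodendrocyte lineage markers 8 of 16 with a median of -0.01. Neuron markers had 14 of 23 above 0 with a median of 0.02. The part of differences in blood, vessel or meninges content between pools in any of the ratios was not tested.

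**Figure D4:**
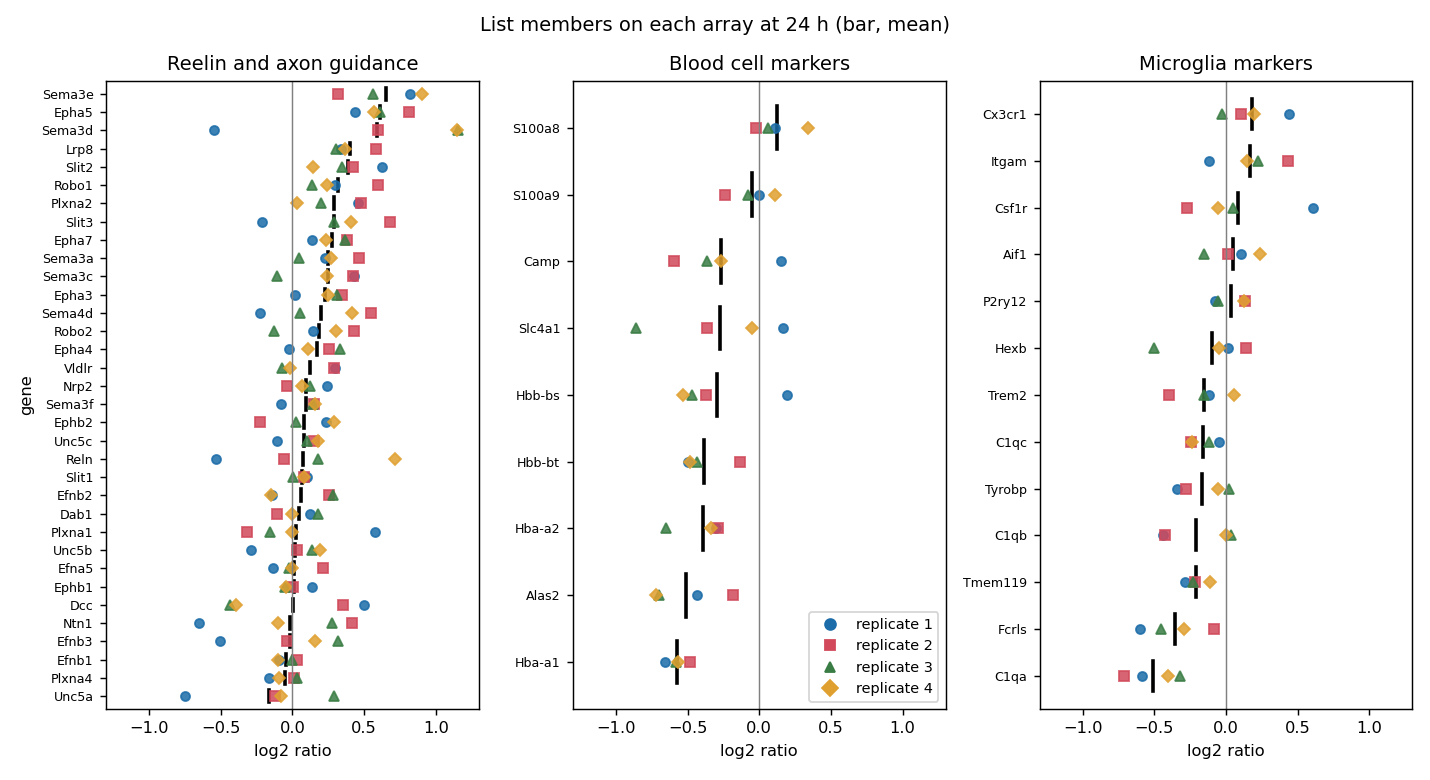
Log2 ratio of MgSO4 over control on each array (symbols) and mean (black bars) for the tested reelin and axon guidance genes (34), blood cell markers (9) and microglia markers (13). Guidance genes lie mostly to the right of 0, red cell genes to the left, and microglia markers on both sides.

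The sex-linked genes, which depend on the sexes in each pool, differed between arrays. Xist, expressed from the inactive X of females, had ratios of 0.63, 0.61, 1.01 and 0.37, and Ddx3y, carried by the Y, had -0.77, 0.62, 0.34 and 0.23. Eif2s3y and Uty also lay below 0 on replicate 1 (-0.15 and -0.67) and above it on the other 3 arrays. On replicates 2 to 4 the X-inactivation and the Y-linked genes were thus both higher in Cy5, and their part in other ratios was not tested.

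The remaining lists had medians from -0.10 to 0.07. Hypoxia-induced genes had 10 of 14 below 0, with Car9, an anhydrase of hypoxic cells, at 0.00, -1.07, -0.95 and -0.76 and above background in Cy5 on 2 arrays. Slc2a1, a glucose transporter of the same list, lay on the other side, at 0.32 ± 0.18. Glucocorticoid-induced genes had 9 of 14 above 0, with the metallothionein Mt1 at 0.10, 0.41, 0.53 and 0.35 and the sulfotransferase Sult1a1 at -0.31, -0.21, -0.68 and -0.30. Of the inflammation genes 12 of 24 were measured well enough to be tested, 8 below 0, and of the interferon-induced genes 7 of 10 were below 0, with Rsad2, an antiviral enzyme, at -0.68 ± 0.49. Circadian clock (9 of 14 above 0), cholesterol synthesis (11 of 22), heat shock (6 of 13), respiratory chain (16 of 34), histone deacetylase, sirtuin and DNA methylation (13 of 26), neurotrophin (5 of 10), choroid plexus (5 of 10) and striatum, thalamus and hypothalamus (7 of 17) genes were spread over both sides. Within them Dhcr7, the last enzyme of cholesterol synthesis, had -0.68, -0.65, 0.07 and -0.78, and the neurotrophin receptor partner Sort1 had a mean of 0.41 ± 0.16 by its brightest probe and -0.22 ± 0.40 by its other.

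Levels at 24 h were then compared with those at the earlier times in a single fit over the 19 MgSO4 arrays. No probe differed at an adjusted p below 0.05 and 1.5-fold from 3 h (of 25498 tested), 6 h (of 23982) or 12 h (of 24120), and the smallest adjusted p was 0.57, 0.651 and 0.9998. Without adjustment, 229, 309 and 197 probes passed 0.05 and 1.5-fold, which is 0.898%, 1.29% and 0.817% of those tested. The 6 h arrays were correlated with each other at r between -0.38 and 0.81, so that the direction of their ratios is not settled. Side by side, the means of Fcgr1 at 3, 6, 12 and 24 h were -1.24 ± 0.78, 1.12 ± 1.46, 0.51 ± 1.00 and -1.60 ± 0.96. Gp9 was below 0 at all times, at -1.10, -0.70, -0.97 and -1.48. Dsg1c had means of 0.50 ± 0.46, -0.28 ± 0.31, -0.24 ± 0.39 and -0.96 ± 0.38 in the same order, and its difference between 24 h and 3 h had the smallest adjusted p among the named genes (0.57). The lists of NMDA receptor subunits and neuron markers stood at 0.36 and 0.33 at 12 h against 0.06 and 0.02 at 24 h, a difference of medians given without a test.

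**Figure D5:**
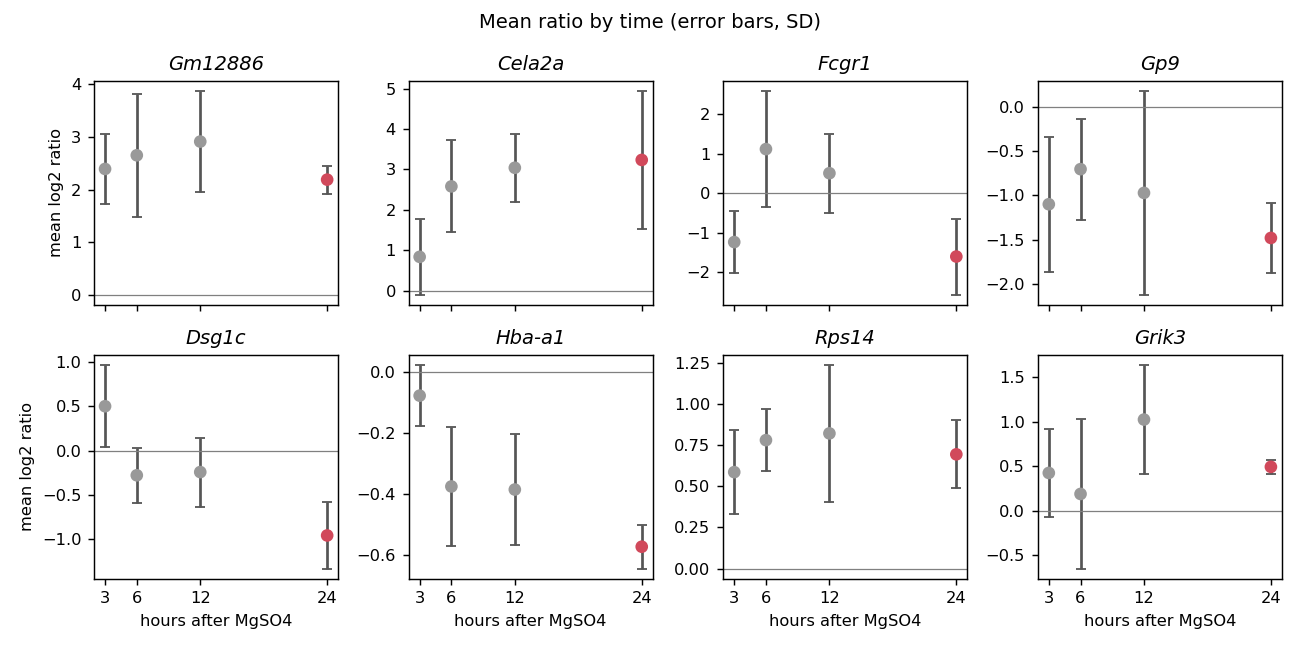
Mean log2 ratio of MgSO4 over control (vertical axes, scales differ) for 8 genes against hours after MgSO4, with the 24 h value in red and error bars of 1 SD over 4, 7, 4 and 4 arrays at 3, 6, 12 and 24 h. Gm12886 lies near the same level at all times, whereas the mean of Hba-a1 is -0.08 at 3 h and -0.57 at 24 h.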

How the data were processed

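Total RNA of pooled forebrain from mice treated at P5 and from their controls was labeled with Cy3 (control) or Cy5 (treated). It was hybridized on Agilent whole mouse genome arrays, 1 control and 1 treated pool per array. The deposited signal intensities were background-subtracted and dye-normalized within each array by the authors with Agilent Feature Extraction 10.5.1.1, the version given in the submitters' processing notes. The authors' series table of deposited log10 ratios of Cy5 to Cy3 was used only as an alternative. Of 39429 non-control probes, 27427 matched 1 gene symbol by RefSeq accession and 12002 none.

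Here, log2 of processed Cy5 over processed Cy3 was computed, outlier spots were left out and spots of a probe averaged. Testing required a signal well above background, in Cy3 or in Cy5, on no fewer than 66.67% of the 4 arrays, and such probes were tested against a mean of 0 with limma 3.58.1 (R 4.3.3) and Benjamini-Hochberg adjustment, and called at an adjusted p below 0.05 and 1.5-fold. All p-values for differences come from limma. They measure the spread between these arrays, and that between pools only if no array repeats a pool. Per the methods, pups of a time point came from 2 or more litters and each time point had 3 independent samples, while 4 arrays at 24 h were analysed here, and which array holds which litters is not given in the sources used here. The 24 h arrays were compared with 3, 6 and 12 h in a fit over 19 arrays. A gene was given by its brightest tested probe. An "at least" fold set the channel not above background to the lowest signal well above background on that array. It holds for background-subtracted signals only, and averages the other channel over all 4 arrays, above background or not. The number of arrays limits the precision.

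Genes named were those called, the 10 highest and 10 lowest among genes at an unadjusted p below 0.05, 1.5-fold and 1 sign, 4 regulators, the extremes of each list and the genes the study names. Other genes are examples chosen after their values were seen. The comparison, the gene lists and the tests were chosen with earlier results of these data known. The test was checked on simulated data. Alternatives changed the spot filter, background correction, scaling, probe filter, test and arrays. Python 3.11.15 and pandas 2.3.3 were used for tables.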

Additional observations from a re-analysis of the deposited data

Results flagged for a closer look

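Among 142 sets of 4 array values at 24 h, 6 had 1 array apart from the other 3 by Dixon's gap ratio past its critical value for 4 samples, and chance gives about 1 in 20. Gm12886 had a gap ratio of 0.924, replicate 4 (2.59) being higher than the others (2.04 to 2.08). Pomc, a hypothalamic prohormone, had 0.911, with 1.23 on replicate 3 against 0.04 to 0.15. Mapre2, a microtubule end-binding protein, had 0.861, with 0.50 on replicate 2 against 0.16 to 0.21. Trim32, a ubiquitin ligase, had 0.993, with -0.12 on replicate 1 against 0.21 on each of the others. Jun had 0.893, with -0.01 on replicate 1 against -0.47 to -0.42. Dhcr7 had 0.852, with 0.07 on replicate 3 against -0.78 to -0.65. In 180 checks no gene had all arrays of 24 h on one side of 0 and all arrays of another time on the other.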

How the results depend on the processing

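The count of 2 called probes was the same with outlier spots kept, with centred ratios and with the deposited log10 ratios. It was 37 without background subtraction and with loess, 0 with a normexp correction, 0 with ratios scaled to one spread, 0 with no filter on dim probes, 0 with both channels required above background on all 4 arrays, 0 by the methods' t-test after adjustment, and 44 (43 higher, 1 lower) with the spread estimated over the 4 times. Restricted to named probes, an alternative chosen after seeing the data, it was 1. Leaving out each array gave 0 to 1 calls. The cause was not tested. The 174 genes at an unadjusted p and 1.5-fold became 28 without background subtraction, 31 with normexp, 460 with no filter, 41 with the strict filter, 73 by the t-test and 235 to 304 with each array left out. Against 6 h, leaving out each 24 h array gave 0 to 1 calls, the 1 arising without replicate 2. With the replicate block the comparisons with 3, 6 and 12 h also gave 0 calls each, and 314, 398 and 370 probes without adjustment. Replicate numbers did not pair the arrays, since deviations of same-numbered arrays correlated at -0.26 to 0.24. With slide as a random block there were 0 calls each. Slide could not be a block within 24 h, where each array had its own. Of 1090 recomputed values of 109 named genes, 64 moved by over 1 SD and 27 changed sign, as did 39 of 363 list medians. List medians without the filter on dim probes were not run. A probe filter leaves the ratio of a probe as it is but changes which genes enter a list. With both channels required above background on all 4 arrays, the NMDA receptor subunit median was -0.15, against 0.06. With the same filter the immediate early gene median was 0.08, against 0.15. Signals near background limit most of the wide ratios.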
